A study of Mus musculus with 23 samples.

Results

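The genes described here are 39 genes of the endoplasmic reticulum (ER) stress response and of the amino acid response, out of 18193 genes measured in 8 subclones of a mouse tumour line, the Lewis lung carcinoma (LLC), which grows as a transplanted lung cancer. They were taken as a list of known response genes, chosen with earlier results of these data known, and all 39 were measured. Of these, 18 are ER chaperone and degradation genes, 20 are targets of the transcription factor ATF4, and the last is Atf4 itself. Each gene was read from its probe set with the highest mean over the 23 arrays, on the scale log2(intensity + 16), so that every level and difference given below is a log2 value on that scale and folds of dim genes are understated. Levels of different genes come from different probes and were not set against each other.

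The subclones are numbered 2, 3, 6, 18, 19, 23, 24 and 28. Each was grown out of the parental line by limiting dilution, and so stands for a single clone. All were grown in DMEM containing 10% FBS and then spent 24 hours in FreeStyle medium without serum before RNA was taken, so the whole data set describes cells without serum. There were 3 arrays of each subclone, except for subclone 6 with 2. No array of the parental line and no array of cells with serum or with a stressor was analysed here, so each subclone was compared with the other 7, whose means were weighted equally. Arrays of the same subclone are labelled as biological replicates, with no word on whether they are separate cultures, and p-values measure only the spread between these arrays, which may be technical.

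When unfolded proteins build up in the ER, the sensors IRE1, ATF6 and PERK start the unfolded protein response. IRE1 splices the mRNA of Xbp1, and ATF6 is cut in the Golgi. Both then yield transcription factors that act on genes for chaperones, disulfide isomerases and the machinery that returns misfolded proteins to the cytosol for degradation. PERK, like the amino acid sensor GCN2, phosphorylates eIF2, which lowers translation in general but raises that of Atf4. ATF4 in turn acts on genes for amino acid synthesis and import, for mitochondrial one-carbon metabolism, and for regulators that end or sharpen the response. Tumour cells use both arms when protein load, oxygen or nutrients are limiting.

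The promoters of the members show how the arms differ in sequence, and some are printed to let a reader see it. The RefSeq table (build GRCm38.p6) held a promoter of 300 bases, from 250 before to 50 after the start, for 36 of the 39 members. Hyou1, Manf and Slc7a5 had no entry. Motifs were searched on both strands. The ER stress response element ERSE (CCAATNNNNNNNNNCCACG), bound by ATF6 and XBP1 together with NF-Y, was found in 8 of 16 chaperone and degradation genes (50%), in 0 of 19 ATF4 targets, and in 0.137% of the 27025 genes with a promoter in the table. Its 8 carriers were Hspa5, Hsp90b1, Calr, Canx, Pdia6, Dnajc3, Creld2 and Syvn1. In the lines below the capitals mark the motif, bases run 5′ to 3′ on the strand of the gene, and Calr holds the motif in the reverse direction. The windows lie at chr2:34772005-34772063 (Hspa5, plus strand), chr8:84847055-84847113 (Calr, minus strand), chr14:118937807-118937865 (Dnajc3, plus strand) and chr19:6046512-6046570 (Syvn1, plus strand), all upstream of the start of the gene.
Hspa5: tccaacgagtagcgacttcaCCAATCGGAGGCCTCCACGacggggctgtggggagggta
Calr: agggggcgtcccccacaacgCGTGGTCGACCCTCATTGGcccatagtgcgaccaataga
Dnajc3: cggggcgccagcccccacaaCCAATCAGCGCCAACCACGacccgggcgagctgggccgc
Syvn1: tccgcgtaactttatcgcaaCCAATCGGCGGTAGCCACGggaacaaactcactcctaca

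The shorter form ERSE-II, in which ATTGG and CCACG lie 1 base apart, was found in Herpud1 and Dnajb11, and in 0.044% of all genes with a promoter. Herpud1 carries it upstream of the start, at chr8:94386357-94386407 on the plus strand.
Herpud1: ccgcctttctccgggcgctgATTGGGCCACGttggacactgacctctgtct

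The element read by ATF4 with C/EBP proteins, called CARE (TGATGNAA), was found in 6 of 19 ATF4 targets (31.6%), in 1 of 16 chaperone and degradation genes (Herpud1) and in 4.51% of all genes with a promoter. The 6 targets were Atf3, Asns, Chac1, Nupr1, Trib3 and Vldlr. Among them are 5 of the 12 members that differed most between subclones. The targets Atf5, Shmt2, Psat1, Phgdh and Mthfd2, also among those 12, had no match. A link between motif and range was not tested. Of the 6 targets with the motif, 4 are printed. Asns holds the motif on the strand of the gene, while Atf3, Nupr1 and Vldlr hold its reverse complement. Their windows lie upstream of the start at chr6:7693210-7693252 (Asns, minus strand), chr1:191183416-191183463 (Atf3, minus strand), chr7:126625553-126625600 (Nupr1, minus strand) and chr19:27216800-27216847 (Vldlr, plus strand).
Asns: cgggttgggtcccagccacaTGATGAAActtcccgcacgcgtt
Atf3: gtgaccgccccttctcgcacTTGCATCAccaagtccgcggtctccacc
Nupr1: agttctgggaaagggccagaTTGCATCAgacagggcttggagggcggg
Vldlr: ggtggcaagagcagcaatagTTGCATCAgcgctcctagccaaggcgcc

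The XBP1 element UPRE (TGACGTGG) was found in no member promoter and in 0.714% of all genes with a promoter. These matches describe letters in the window and are not measured binding sites.

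Medians of intensity lay between 40.83 and 45.74 over the arrays, and the ratio of 3′ to 5′ probe sets lay between 0.903 and 0.967 for Gapdh and between 1.348 and 1.529 for Actb. The 5th percentile of intensity was 2.08 to 2.39 on the arrays of subclones 19, 23 and 24 and 2.45 to 2.76 on all others, without overlap, and its part in the results was not tested. No pair of arrays held identical values. Of the 5 epithelial markers, Krt18 (mean 11.55), Krt8 (10.16) and Epcam (7.53) were well above the floor of the scale and Cdh1 (4.43) and Cldn4 (4.44) near it. Of the 5 mesenchymal markers, Vim (13.75), Col3a1 (13.61), Fn1 (13.37) and Acta2 (11.17) were well above the floor and Col1a1 (4.77) near it. Of the 5 lung epithelial markers, Sftpb had a mean of 6.59, Ager of 5.49, Sftpc of 5.33, Scgb1a1 of 4.97 and Nkx2-1 of 4.35. Of the 6 leukocyte markers measured, Ptprc, Cd3e, Itgam and Adgre1 stayed near the floor, Csf1r lay between 6.90 and 7.50 on every array and did not pass the F-test, and Cd68 varied by 2.80 between subclones and was lowest in subclone 18. The summed intensity of the epithelial markers was 2064 to 2109 on the arrays of subclone 18 and 3838 to 6925 on all others. Krt8 and Krt18 were the 2 of these 5 called lower there, whereas Epcam was higher by 0.53.

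All 39 members differed between subclones (limma's moderated F-test, adjusted p under 0.05), which is little more than a highly expressed gene does here, since 61.8% of all genes and 91.4% of the 10646 genes with a mean of at least 6 did so too. The arms differed in the size of their ranges. The range between the lowest and highest subclone mean reached 2-fold in 10 of 20 ATF4 targets and in 2 of 18 chaperone and degradation genes, against 12.7% of all genes and 18.3% of those with a mean of at least 6. The median range was 0.94 for the ATF4 targets, 0.56 for the chaperone and degradation genes and 0.49 for all genes. Widest of all was Nupr1, with 2.90 or 7.45-fold, and Canx (0.26), Hsp90b1 (0.27) and Atf4 (0.31) were the narrowest on the probe sets used. Dimmer probe sets of Canx gave wider ranges of 0.41 and 0.63, and another of Hsp90b1 gave 0.31. One of Atf4, nearly as bright as the one used (mean 11.12), gave 0.65. Those of Xbp1 and Pdia6 gave narrower ranges than the one used. The part of probe brightness in the ranges was not tested. Over the 28 pairs of subclones, a 1.5-fold difference that passed the test on the probe sets used was found in 18 pairs for Vldlr, in 17 for Trib3, in 14 for Nupr1, in 13 for Atf5 and in 0 for Atf4. The average over all genes and pairs was 8.02%.

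Differences of at least 1.5-fold from the other subclones were few and fell mainly on the ATF4 targets. In subclone 18, 2 members were higher and 6 lower by that rule (3.01% and 4.64% of all genes). In subclone 2 it was 1 higher and 4 lower (1.57% and 2.76%), and in subclone 3 it was 6 higher and 0 lower (2.16% and 1.72%). Subclone 6 had 3 higher and 0 lower (1.62% and 0.61%), subclone 19 had 2 higher and 0 lower (2.97% and 2.26%), and subclone 23 had 2 higher and 0 lower (1.86% and 2.31%). Subclone 24 had 1 higher and 1 lower (1.09% and 2.42%), and subclone 28 had 1 higher and 2 lower (3.1% and 1.64%). The only members of the chaperone and degradation list among these were Pdia4, Dnajb9 and Edem1 in subclone 18, Dnajc3 in subclone 19 and Sdf2l1 in subclone 28.

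A stricter view asks whether all arrays of a subclone lie beyond every other array. In subclone 18 this held for 12 of 39 members, 2 above and 10 below, against 11.3% of all genes. It held for 9 members in subclone 2 (5.21%), 5 in subclone 3 (6.06%), 1 in subclone 6 (1.93%) and 7 in subclone 19 (8.67%). It held for 7 in subclone 23 (6.36%), 3 in subclone 24 (4.34%) and 5 in subclone 28 (7.53%). The 10 members that were lowest throughout in subclone 18, on the probe sets used, were Pdia4, Dnajb9, Dnajc3, Hyou1, Manf, Edem1, Trib3, Nupr1, Vldlr and Slc3a2. The other Dnajc3 probe sets had their lowest mean in subclone 3 or 28. Among them is one about as bright (mean 11.01), with 10.69 in subclone 3 and 10.76 in subclone 18. Vldlr probe sets with a mean of 7.10 or less were lowest in subclone 28, and a dim Hyou1 one (mean 6.20) in subclone 23.

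**Figure D1:**
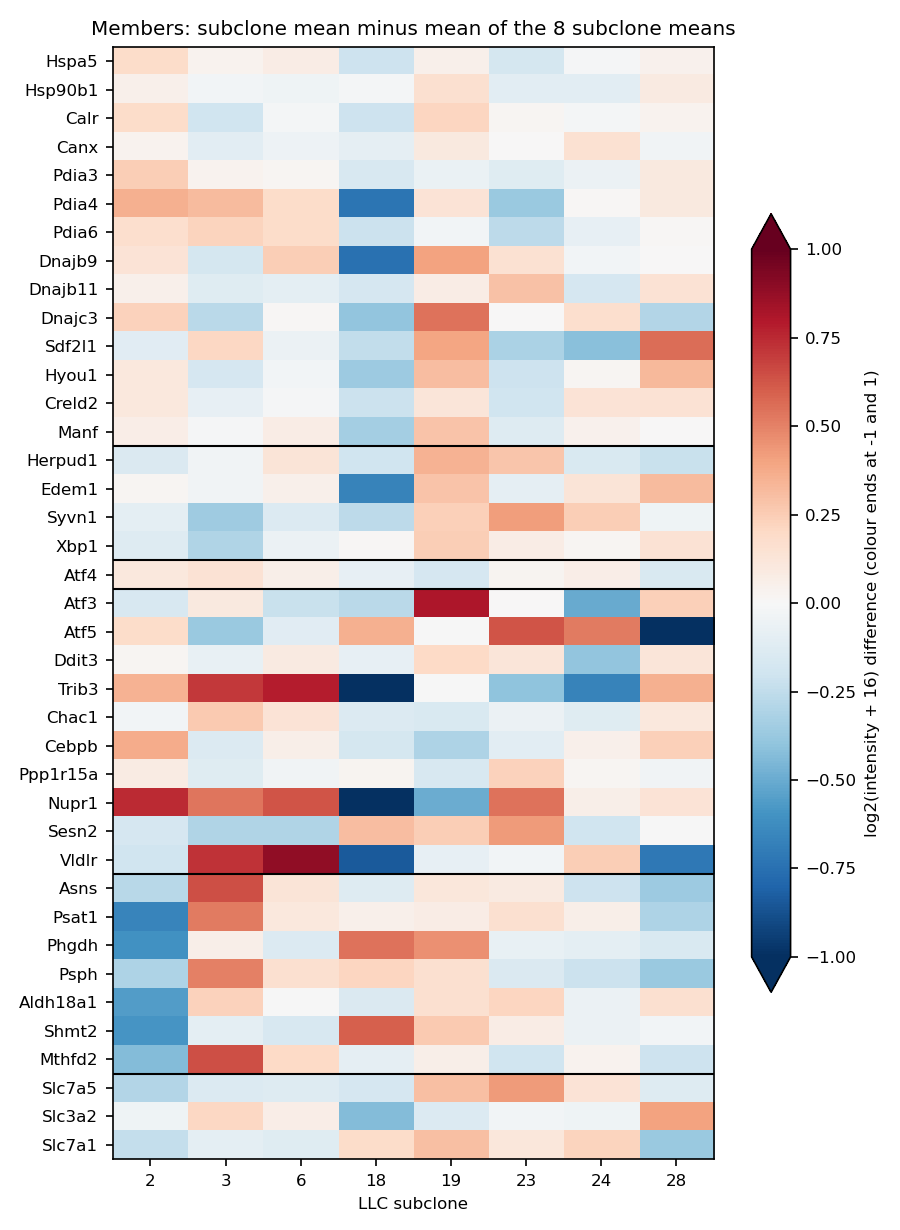
Mean of each subclone minus the mean of all subclone means (log2, colour) for the 39 members, ordered by role. The column of subclone 18 is low over the chaperone and degradation genes and that of subclone 19 is high over them, while the rows of the ATF4 targets take many patterns.

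In subclone 18 most ER folding genes, the chaperones and disulfide isomerases that fold secreted and membrane proteins, were low in mRNA. Of the 18 chaperone and degradation genes 16 were lower than in the other 7 subclones and 0 were higher, with a median difference of -0.25, while 21.6% of all genes and 32.8% of those with a mean of at least 6 were called lower there. The falls were of unequal size. Dnajb9, a co-chaperone of BiP, fell by 0.85, Pdia4, a disulfide isomerase, by 0.83, and Edem1, a lectin-like factor that hands glycoproteins to degradation, by 0.76. Dnajc3, a co-chaperone that also restrains PERK, fell by 0.45, the large chaperone gene Hyou1 by 0.42 and the secreted ER factor Manf by 0.39. The central chaperone BiP, encoded by Hspa5, fell by only 0.24 ± 0.025 (SE, limma adjusted p = 2.98e-07), as did Calr and Pdia6. The calnexin gene Canx fell by 0.10. Hsp90b1, the ER member of the HSP90 family, read -0.02 and Xbp1 read 0.01, and neither passed the test. In bulk RNA, fewer cells of a kind and less RNA per cell cannot be told apart.

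Dnajb9 read 10.23, 10.37 and 10.33 on the arrays of subclone 18. It read 10.75, 10.97 and 10.93 in subclone 3, 10.95, 11.14 and 11.00 in subclone 24, 10.99, 11.09 and 11.10 in subclone 28, and 11.21, 11.25 and 11.13 in subclone 2. The values were 11.20, 11.26 and 11.17 in subclone 23, 11.35 and 11.26 in subclone 6, and 11.48, 11.46 and 11.44 in subclone 19. The arrays of subclone 18 thus lay below every other array and those of subclone 19 above every other.

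Pdia4 read 10.77, 10.77 and 10.72 in subclone 18 and 11.05, 11.05 and 11.24 in subclone 23. In subclone 24 it read 11.49, 11.46 and 11.54, in subclone 28 11.59, 11.58 and 11.58, in subclone 19 11.52, 11.71 and 11.62, and in subclone 6 11.62 and 11.71. The highest arrays were those of subclone 3, with 11.80, 11.83 and 11.77, and of subclone 2, with 11.80, 11.81 and 11.90. Subclones 18 and 23 were separate from each other and from all the rest. A second, dim Pdia4 probe set (mean 6.28) did not follow the one used (r = 0.08) and gave a difference of 0.025 in subclone 18, with no call, while the mean of both gave -0.40.

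In subclone 18 all 14 genes of a list of hypoxia and glycolysis genes were lower as well, with a median of -0.92, and all 14 genes of a proliferation list were higher. The part of either list, or of the low Krt8 and Krt18, in the low chaperone levels was not tested. In subclone 24 the 14 hypoxia and glycolysis genes were lower too, with a median of -0.46, and there 5 of the 18 chaperone and degradation genes were higher and 5 lower (15.2% and 17.1% of all genes). Among genes with a mean of at least 6, 24.2% were higher and 25.4% lower in subclone 24, near those counts. Some shifts showed in the median difference over a chromosome's genes with a mean of at least 6, whatever their position on it. Chromosome 6, which carries Edem1 and Pdia4, had a median of -0.17 in subclone 18, and chromosome 19, which carries Syvn1, had a median of -0.31. Their part in the results for single genes was not tested, here and where such medians are given further on.

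Subclone 19 stood at the other end. Of the same 18 genes 14 were higher there and 0 lower, with a median of 0.26, against 24.2% of all genes and 37.4% of those with a mean of at least 6. Dnajc3 was higher by 0.62 ± 0.040 (SE), Dnajb9 by 0.46, Sdf2l1, which works with BiP and its co-chaperones, by 0.45, and Hyou1 by 0.35. All 4 genes of degradation and Xbp1 were higher on the probe sets used. Herpud1, which organises the degradation complex at the ER membrane, was higher by 0.40, Edem1 by 0.33, Xbp1 by 0.28, and Syvn1, the ubiquitin ligase of that complex, by 0.27. A second Edem1 probe set did not show it, with 9.35 in subclone 19 against a mean of 9.34, and was highest in subclone 3 (9.69). Hspa5 (0.06), Pdia3 (-0.08), Pdia6 (-0.03) and Dnajb11 (0.08) did not pass the test there.

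Compared directly, subclone 18 was lower than subclone 19 by at least 1.5-fold in 7 of the 18 chaperone and degradation genes and higher in none, where 8.96% of all genes differed by that much in either direction. Dnajb9 differed by -1.15, Edem1 by -0.96, Dnajc3 by -0.93, Pdia4 by -0.86, Hyou1 by -0.67, Sdf2l1 by -0.65 and Manf by -0.63. These 7 are folding and degradation genes of the ER lumen and membrane. Among ATF4 targets, Nupr1 (-1.65), Trib3 (-1.12), Atf3 (-1.08) and Vldlr (-0.76) were lower in subclone 18 by that rule.

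**Figure D2:**
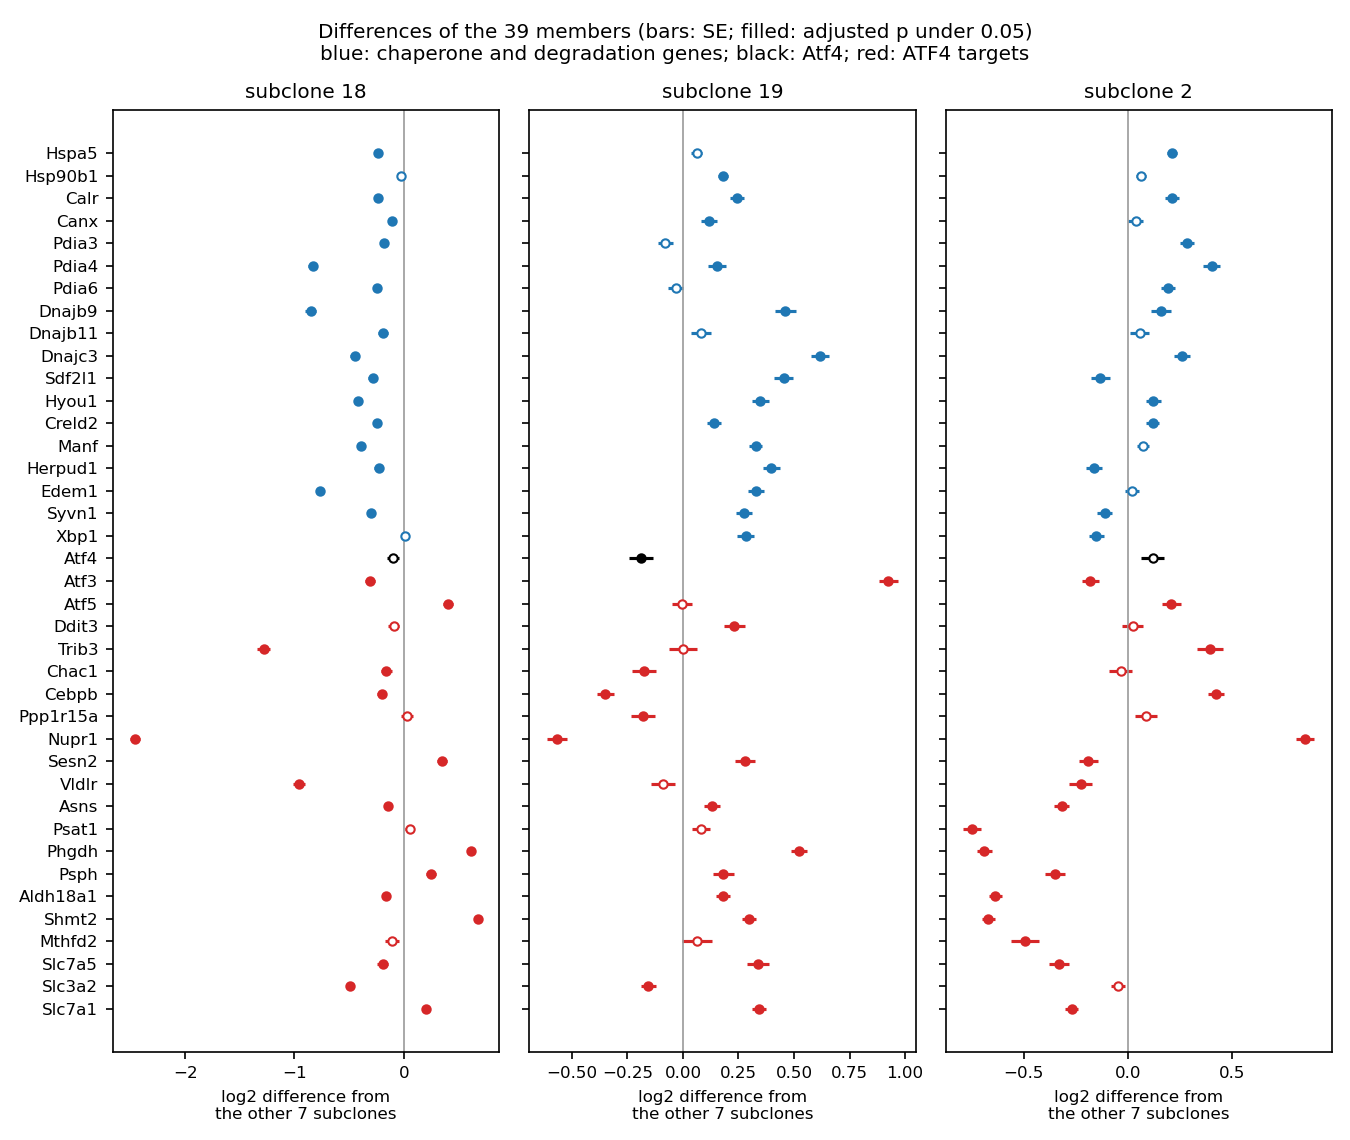
Difference of subclones 18, 19 and 2 from the mean of the other 7 (log2, bars are SE, filled points passed the test) for the 39 members, with a scale of its own in each panel. Dnajb9 lies at -0.85 in subclone 18 and at 0.46 in subclone 19, while Hsp90b1 and Xbp1 lie near 0 in subclone 18, and the amino acid synthesis genes lie below 0 in subclone 2.

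The remaining subclones showed mixed chaperone patterns. Subclone 2 had 9 of the 18 genes higher and 4 lower (all genes 15.4% and 20.5%), led by Pdia4 at 0.40 and by the disulfide isomerase Pdia3 at 0.28. In subclone 3, 3 were higher and 9 lower (19.4% and 18.6%). There Pdia4 (0.36) and Pdia6 (0.25) were up while Syvn1 (-0.41), Xbp1 (-0.35) and Dnajc3 (-0.30) were down. Subclone 23 had 4 higher and 10 lower (20.2% and 17.4%). There Syvn1 was higher by 0.48 and Dnajb11, a BiP co-chaperone, by 0.34, while Pdia4 was at -0.42 and Pdia6 at -0.30. Subclone 28 had 9 higher and 2 lower (19.2% and 18.2%), with Sdf2l1 at 0.64, Hyou1 at 0.38 and Edem1 at 0.36. Subclone 24 had its lowest value at Sdf2l1 (-0.48). On chromosome 16, which holds Sdf2l1 and Dnajb11, genes had medians of -0.25 in subclone 24, 0.20 in subclone 28 and 0.22 in subclone 23. In subclone 6, with 2 arrays, 4 were higher and 1 lower (13.8% and 10.1%), and Dnajb9 was highest among them at 0.29. Among genes with a mean of at least 6, 23.5% were higher and 31.6% lower in subclone 2, and 29.8% and 28.9% in subclone 3. The shares were 32.4% and 25.7% in subclone 23, 29% and 28.5% in subclone 28, and 20% and 16.1% in subclone 6. The 4 genes higher in subclone 6 lie near the share there. Creld2, an ER protein induced by stress, varied by 0.36 over all subclones.

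Atf4 mRNA, by contrast, was nearly level on the probe set used. Its mean lay between 11.10 in subclone 19 and 11.41 in subclone 3, and only subclones 3 (0.16), 19 (-0.19) and 28 (-0.17) differed from the others by the test. Another Atf4 probe set gave a wider range of 0.65, also with subclone 3 highest but with subclone 28 lowest. Since ATF4 is controlled largely at translation, its mRNA level does not give the level of the protein, which the arrays did not measure.

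The regulators downstream of ATF4 held the largest differences of all. Nupr1, a small stress-induced nuclear protein, read 7.76, 7.85 and 7.63 in subclone 18 and 9.41, 9.32 and 9.47 in subclone 19. It read 9.97, 9.96 and 9.94 in subclone 24, 10.07, 10.04 and 10.01 in subclone 28, 10.46, 10.34 and 10.51 in subclone 23, and 10.51, 10.36 and 10.42 in subclone 3. In subclone 6 the values were 10.57 and 10.48, and in subclone 2 they were 10.69, 10.61 and 10.64. Subclone 18 was lower than the others by 2.46 ± 0.045 (SE), a 5.49-fold difference (limma adjusted p = 4.32e-18), and no other subclone came within its arrays. Subclone 19 was lower by 0.57, and its chromosome, 7, had a median of -0.18 there.

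Trib3, a pseudokinase that restrains ATF4 and AKT, was lowest in the same subclone. It read 6.60, 6.62 and 6.48 in subclone 18, 6.90, 7.03 and 7.13 in subclone 24, 7.11, 7.34 and 7.42 in subclone 23, and 7.64, 7.69 and 7.73 in subclone 19. It read 8.0, 8.01 and 8.10 in subclone 2, 8.02, 8.01 and 8.10 in subclone 28, 8.34, 8.36 and 8.49 in subclone 3, and 8.33 and 8.62 in subclone 6. Subclones 2 and 28 overlapped, as did 3 and 6, and 23 and 24. The difference was -1.28 ± 0.063 (SE, 2.43-fold) in subclone 18, 0.90 in subclone 6 and 0.81 in subclone 3. A second Trib3 probe set followed closely (r = 0.98) with a narrower range of 1.18, and gave -0.70 in subclone 18 (limma adjusted p = 2.77e-09).

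Vldlr, a lipoprotein receptor that ATF4 raises under ER stress, read 8.40, 8.33 and 8.39 in subclone 18, 8.56, 8.51 and 8.45 in subclone 28, and 9.03, 8.99 and 9.03 in subclone 2. It read 8.99, 9.16 and 9.26 in subclone 19, 9.11, 9.09 and 9.35 in subclone 23, and 9.49, 9.44 and 9.46 in subclone 24. The highest arrays were 9.83, 10.05 and 9.94 in subclone 3 and 10.08 and 10.13 in subclone 6. Subclones 3 (0.82) and 6 (1.02) were thus high in Vldlr, Trib3 and Nupr1 together, and subclone 18 (-0.96 for Vldlr) was low in all 3. Vldlr lies on chromosome 19, whose median in subclone 18 is given above.

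Atf5, a relative of ATF4, took its own course. It read 7.74, 7.79 and 7.79 in subclone 28, 8.63, 8.71 and 8.46 in subclone 3, 8.86 and 8.86 in subclone 6, and 8.94, 8.96 and 9.01 in subclone 19. It read 9.09, 9.12 and 9.24 in subclone 2, 9.34, 9.40 and 9.22 in subclone 18, 9.51, 9.46 and 9.49 in subclone 24, and 9.58, 9.54 and 9.67 in subclone 23. Subclone 28 was lower by 1.37, or 2.58-fold, and stood apart from every other array. In subclone 18, where Nupr1 and Trib3 were lowest, Atf5 was higher by 0.40.

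Atf3, an early stress-induced repressor, was high in the subclone with the high chaperones. It read 8.08, 8.01 and 8.21 in subclone 19, 7.52, 7.53 and 7.55 in subclone 28, 7.42, 7.32 and 7.43 in subclone 3, and 7.41, 7.24 and 7.24 in subclone 23. It read 7.10, 7.12 and 7.19 in subclone 2, 7.07 and 7.07 in subclone 6, 7.03, 6.97 and 7.07 in subclone 18, and 6.86, 6.75 and 6.76 in subclone 24. Subclone 19 lay above all other arrays and subclone 24 below them, with differences of 0.93 and -0.57. Chromosome 1, which holds Atf3, had a median of 0.29 in subclone 19.

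Ddit3, which encodes the pro-death factor CHOP, was lower by 0.45 in subclone 24 and higher by 0.23 in subclone 19, and its chromosome, 10, had medians of -0.27 and 0.25 there. Its second probe set followed it weakly (r = 0.41). Sesn2, which reports low leucine to mTORC1, was higher in subclones 23 (0.49), 18 (0.35) and 19 (0.28). A second Sesn2 probe set followed only in part (r = 0.51), with a range of 0.38, its highest mean in subclone 28 (8.60), and 8.39 in subclone 18 against a mean of 8.42. Cebpb, a partner of ATF4, was highest in subclone 2 (0.42) and lowest in subclone 19 (-0.35). Its chromosome, 2, which also carries Hspa5, Pdia3, Trib3 and Chac1, had medians of 0.15 and -0.16 in these subclones. Chac1, which breaks down glutathione, was higher in subclone 3 by 0.30, and Ppp1r15a, the phosphatase subunit that reverses eIF2 phosphorylation, was higher in subclone 23 by 0.26.

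**Figure D3:**
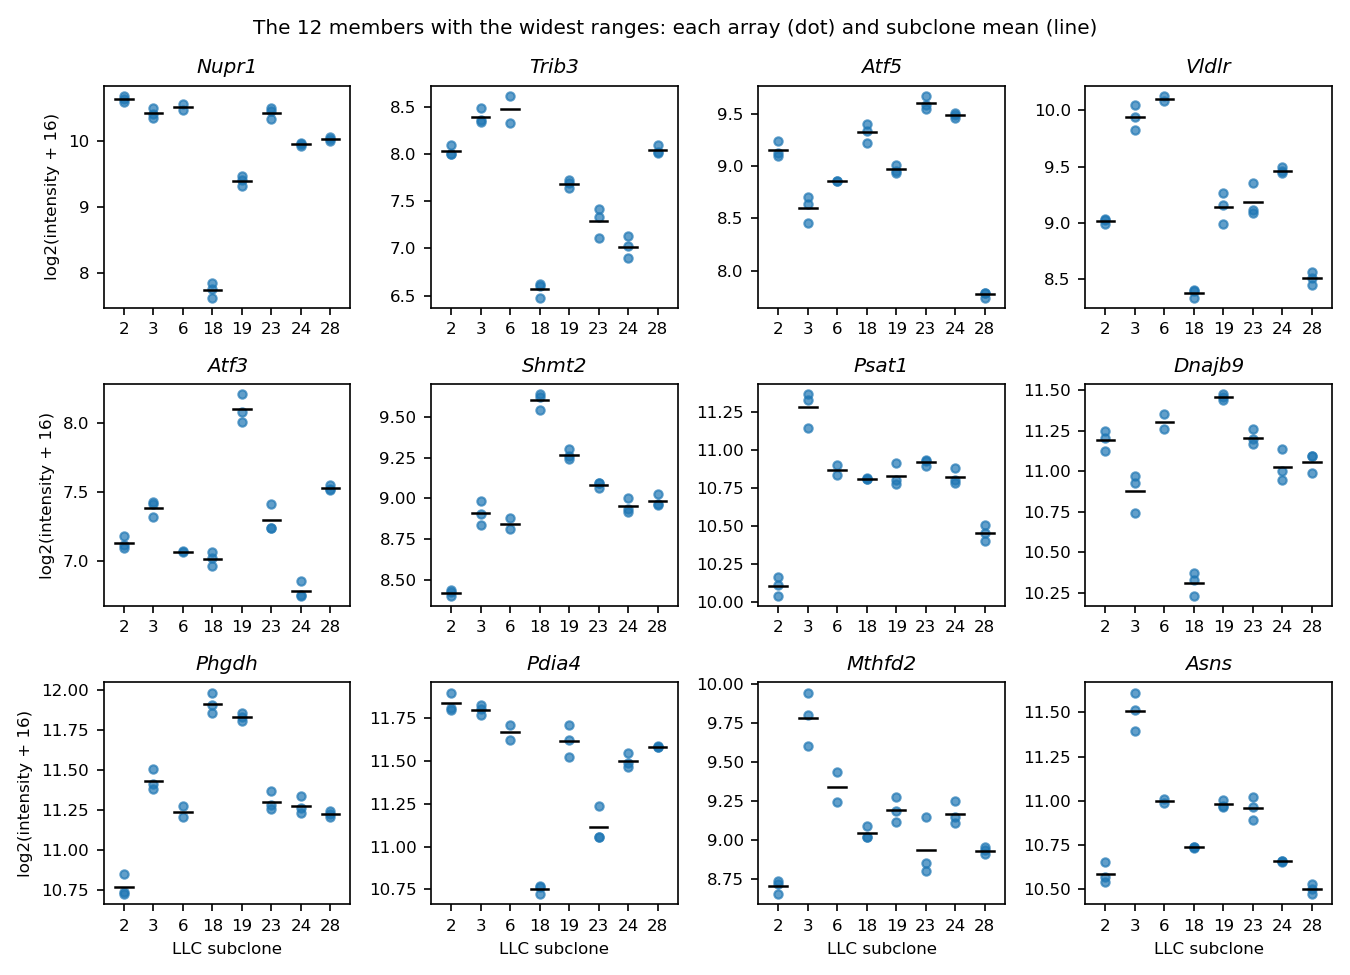
Level of the 12 members with the widest ranges on each of the 23 arrays (log2 of intensity + 16), by subclone. The arrays of a subclone lie close together, and Nupr1 in subclone 18 lies near 7.76 while all other arrays lie above 9.

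The genes of amino acid and one-carbon synthesis were low in subclone 2. All 7 were lower there than in the other 7 subclones, with a median of -0.64, against 20.5% of all genes and 31.6% of those with a mean of at least 6. In that subclone all 14 proliferation genes were lower too, with a median of -0.76, and its part in the low synthesis genes was not tested. In subclone 3, 5 of the 7 were higher and 1 lower, with a median of 0.58 (all genes 19.4% and 18.6%, those with a mean of at least 6 29.8% and 28.9%). Asns, Psat1, Psph and Mthfd2 were higher on its arrays than on any other array.

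Asns, asparagine synthetase, read 11.61, 11.40 and 11.51 in subclone 3 and 10.99 and 11.01 in subclone 6. It read 10.97, 10.97 and 11.00 in subclone 19, 10.97, 10.89 and 11.02 in subclone 23, and 10.74, 10.73 and 10.74 in subclone 18. It read 10.65, 10.66 and 10.66 in subclone 24, 10.57, 10.54 and 10.65 in subclone 2, and 10.47, 10.53 and 10.50 in subclone 28. Subclone 3 lay above every other array (0.73), and subclones 28 (-0.42) and 2 (-0.32) were the lowest.

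Serine is made from a glycolytic intermediate by Phgdh, Psat1 and Psph in turn, and Shmt2 and Mthfd2 then carry its one-carbon unit in mitochondria. Psat1 read 10.11, 10.04 and 10.16 in subclone 2, 10.40, 10.45 and 10.50 in subclone 28, and 11.37, 11.15 and 11.33 in subclone 3. Its other arrays, of subclones 6, 18, 19, 23 and 24, all lay between those of subclones 28 and 3. It read 10.90 and 10.83 in subclone 6, 10.81 on all 3 arrays of subclone 18, 10.91, 10.80 and 10.78 in subclone 19, 10.93, 10.89 and 10.93 in subclone 23, and 10.80, 10.88 and 10.78 in subclone 24. Those 5 subclones overlapped in part.

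Mthfd2 had a like order at the ends. It read 9.80, 9.61 and 9.95 in subclone 3, 9.44 and 9.24 in subclone 6, 9.28, 9.12 and 9.19 in subclone 19, and 9.11, 9.25 and 9.15 in subclone 24. It read 9.02, 9.02 and 9.09 in subclone 18, 8.96, 8.91 and 8.93 in subclone 28, 9.15, 8.81 and 8.85 in subclone 23, and 8.72, 8.66 and 8.74 in subclone 2. Subclone 3 lay above and subclone 2 below all other arrays on this probe set. A second Mthfd2 probe set, about as bright (mean 9.10), was also highest in subclone 3. Its lowest mean was in subclone 28 (8.64), with 8.68 in subclone 2. Psph, too, was high in subclone 3 (0.58) and low in subclones 28 (-0.43) and 2 (-0.35).

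Phgdh and Shmt2 differed from these in their high end. Phgdh read 11.91, 11.99 and 11.86 in subclone 18 and 11.86, 11.81 and 11.83 in subclone 19. It read 11.51, 11.41 and 11.38 in subclone 3, 11.28, 11.26 and 11.37 in subclone 23, 11.26, 11.23 and 11.34 in subclone 24, and 11.28 and 11.21 in subclone 6. It read 11.21, 11.22 and 11.24 in subclone 28 and 10.74, 10.72 and 10.85 in subclone 2. Subclones 18 (0.62) and 19 (0.52) were high and nearly met, and subclone 2 (-0.69) lay below all others. Chromosome 3, which holds Phgdh, had a median of 0.26 in subclone 19.

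Shmt2 read 9.55, 9.62 and 9.64 in subclone 18, 9.30, 9.26 and 9.24 in subclone 19, and 9.09, 9.09 and 9.07 in subclone 23. It read 8.96, 8.97 and 9.03 in subclone 28, 8.92, 9.0 and 8.93 in subclone 24, 8.98, 8.84 and 8.91 in subclone 3, 8.81 and 8.88 in subclone 6, and 8.40, 8.44 and 8.42 in subclone 2. Subclone 18 was higher by 0.68 and subclone 2 lower by 0.67, each apart from all other arrays. Chromosome 10, which holds Shmt2, had medians of 0.20 in subclone 18 and 0.25 in subclone 19. In subclone 18 the serine genes did not move as a block, since Phgdh, Psph (0.25) and Shmt2 were higher while Psat1 (0.06) and Mthfd2 (-0.11) did not pass the test. Aldh18a1, which starts proline synthesis, was lower by 0.64 in subclone 2 and higher by 0.27 in subclone 3.

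Of the 3 transport genes, Slc7a5 and Slc3a2 encode the light and heavy chain of the leucine transporter LAT1. They did not vary together. Slc7a5 was higher in subclones 23 (0.48) and 19 (0.34) and lower in subclone 2 (-0.33), whereas Slc3a2 was higher in subclone 28 (0.46) and lower in subclone 18 (-0.49). Slc3a2 lies on chromosome 19, with its median of -0.31 in subclone 18, and Slc7a5 on chromosome 8, with medians of 0.26 in subclone 23 and -0.28 in subclone 28. Slc7a1, a carrier of arginine and lysine, was higher in subclone 19 (0.34) and lower in subclones 28 (-0.42) and 2 (-0.27).

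Set against each other, the arms leaned in different ways in different subclones. For each array, the mean of the 20 ATF4 targets was taken minus the mean of the 18 chaperone and degradation genes, after centring each gene over the subclones. It was 0.25 ± 0.056 (SD, n = 3) in subclone 3, 0.14 ± 0.026 (n = 3) in subclone 23, 0.12 ± 0.020 (n = 3) in subclone 18 and 0.076 ± 0.021 (n = 2) in subclone 6. It was -0.055 ± 0.024 in subclone 24 (-0.028 with the mean of all probe sets), -0.12 ± 0.011 in subclone 19, -0.18 ± 0.012 in subclone 28 and -0.22 ± 0.013 in subclone 2 (n = 3 each). The same positive sign in subclones 3 and 18 came from different sides. In subclone 3 the targets averaged 0.19 and the chaperones -0.060, whereas in subclone 18 both were low, at -0.17 and -0.29. In subclone 19 both were above their means, at 0.090 and 0.21, and in subclone 2 the targets were at -0.14 with the chaperones at 0.081. By single genes, 10 of the 20 targets were higher and 6 lower in subclone 3 (19.4% and 18.6% of all genes), and 4 were higher and 12 lower in subclone 2 (15.4% and 20.5%). In subclone 18, 6 were higher and 10 lower (21.5% and 21.6%), and in subclone 19, 10 were higher and 5 lower (24.2% and 17.7%). The 4 targets higher in subclone 2, the 6 higher in subclone 18 and the 5 lower in subclone 19 lie near those shares. Among genes with a mean of at least 6, 29.8% were higher and 28.9% lower in subclone 3, and 23.5% and 31.6% in subclone 2. The shares were 32.5% and 32.8% in subclone 18 and 37.4% and 25.7% in subclone 19. The 6 targets lower in subclone 3 lie near the share there. These are descriptions of lists chosen with the data known and carry no test.

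**Figure D4:**
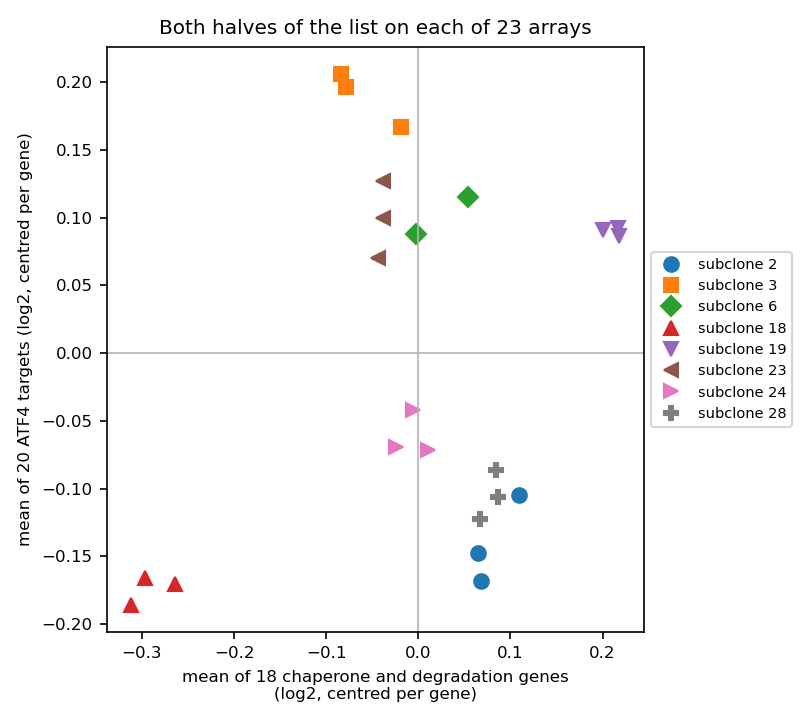
Mean of the 20 ATF4 targets against the mean of the 18 chaperone and degradation genes on each array (log2, each gene centred over subclones). Subclone 18 lies low on both axes, subclone 19 high in chaperones, and subclones 2 and 3 on opposite sides in the targets. The low targets' mean of subclone 18 rests largely on Nupr1, Trib3 and Vldlr.

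Between pairs of subclones, the count of members that differed by 1.5-fold ran from 0 for subclones 3 and 6, where 2.23% of all genes did so, to 12 for subclones 18 and 28, where 12.8% did. Subclones 2 and 3 differed in 7 members, all ATF4 targets lower in subclone 2, and in 0 chaperone and degradation genes (5.18% of all genes). Subclones 23 and 24 differed in 1 member, and in 6.1% of all genes.

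Over the 8 subclone means, the chaperones varied together more than the ATF4 targets did. The median Pearson correlation was 0.51 over the 91 pairs of ER folding genes, 0.44 over the 153 pairs of chaperone and degradation genes, 0.12 over the 190 pairs of ATF4 targets and -0.0099 between the lists. It was 0.0047 over all pairs of genes past the F-test. The highest values were those of Hspa5 with Pdia4 (r = 0.94), Phgdh with Shmt2 (0.94), and Hyou1 with Creld2 (0.90). Across the arms, Pdia6 and Trib3 reached 0.88, while Sdf2l1 and Atf5 were at -0.88. The lowest value of all, -0.89, lay within the ATF4 targets, between Cebpb and Phgdh. Atf4 mRNA correlated at 0.67 with Vldlr, 0.57 with Nupr1, 0.40 with Asns and 0.30 with Trib3, but at -0.46 with Ddit3, -0.63 with Shmt2 and -0.86 with Xbp1. For Atf4 these hold on the probe set used. Another Atf4 probe set, nearly as bright (mean 11.12), followed it at r = 0.82, and its correlations with other genes are not given. All these values rest on 8 points that share their arrays, and subclones 18 and 19 lie at the ends of many of them.

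**Figure D5:**
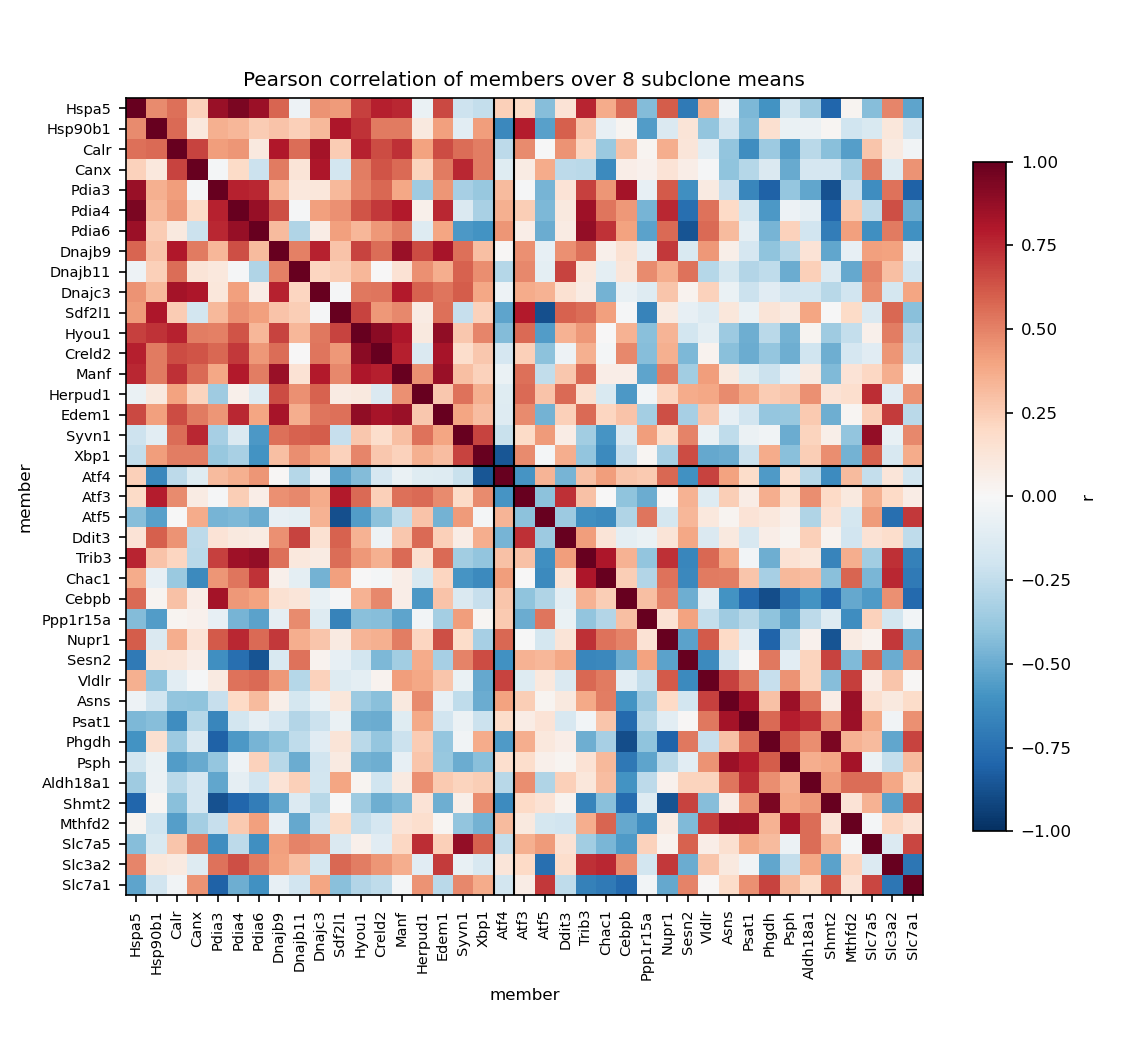
Pearson correlation of each pair of members over the 8 subclone means (colour from -1 to 1), ordered by role. The block of ER folding genes is mostly red, with a median of 0.51, and the block of ATF4 targets is mixed, with a median of 0.12.

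Genes of the same pathways outside the 39 were counted from further lists. Of 30 other genes of ER import, folding and degradation, 27 were lower in subclone 18 and 0 higher (21.6% and 21.5% of all genes), with a median of -0.36. In subclone 19, 27 were higher and 0 lower (24.2% and 17.7%), with a median of 0.28. The oxidase genes Ero1a (-1.60) and Ero1b (-1.34), which supply oxidising power to disulfide isomerases, and the isomerase Pdia5 (-0.90) were among those lower in subclone 18, and Wfs1, an ER calcium regulator, was higher by 1.14 in subclone 19. Ero1a was also lower in subclone 24 by 1.15 and higher in subclone 28 by 1.17.

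Of 12 sensors and eIF2 kinases measured, 5 were lower and 2 higher in subclone 18, where 21.6% and 21.5% of all genes and 32.8% and 32.5% of those with a mean of at least 6 were, so that the counts of this list do not stand far from the background. In subclone 19, 9 were higher and 2 lower (37.4% and 25.7%). Ern1, which encodes IRE1, had a mean of 9.36 in subclone 18 and 11.55 in subclone 19, with differences of -1.56 ± 0.034 (SE) and 0.94, while its 6 other means lay between 10.58 and 11.06. Its 3 arrays lay below all others in subclone 18 and above all others in subclone 19. Atf6 differed by -0.62 and 0.68, and it lies on chromosome 1, whose median of 0.29 in subclone 19 is given above. Creb3l2, a relative of Atf6, was lower by 0.68 in subclone 18. Splicing of Xbp1 and the phosphorylation of eIF2 were not measured.

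Among 22 other ATF4 targets, 12 were lower in subclone 18 (21.6% of all genes) and 4 higher, which is near the share of all genes (21.5%). In subclone 6, 11 were higher and 0 lower (13.8% and 10.1%), and in subclone 3, 11 were higher and 2 lower (19.4% and 18.6%). In subclone 19, 2 were higher and 8 lower (24.2% and 17.7%), unlike the 20 member targets, where 10 were higher and 5 lower. In subclone 28, 9 were higher and 4 lower (19.2% and 18.2%), against 7 and 9 of the member targets. In subclone 2, 5 were higher and 6 lower (15.4% and 20.5%), against 4 and 12 of the member targets. The 5 and 6 of subclone 2 and the 4 of subclone 28 lie near those shares. Gadd45a, a growth arrest gene, was lower by 1.40 in subclone 18, and Slc7a11, the cystine importer, ranged over 2.84 between subclones, from 7.43 in subclone 18 to 10.27 in subclone 28. Of 14 tRNA synthetase and related genes, which charge or export tRNA, 8 were lower in subclone 2 (20.5% of all genes), 7 were higher in subclone 18 (21.5%), and 7 were higher and 0 lower in subclone 19 (24.2% and 17.7%). The 2 that were higher in subclone 2 and the 3 that were lower in subclone 18 lie near the shares of all genes there (15.4% and 21.6%). Among genes with a mean of at least 6, 32.5% were higher and 32.8% lower in subclone 18, and 20% and 16.1% in subclone 6. The shares were 29.8% and 28.9% in subclone 3 and 37.4% and 25.7% in subclone 19. They were 29% and 28.5% in subclone 28 and 23.5% and 31.6% in subclone 2.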

How the data were processed

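The authors deposited 1 intensity per probe set for 23 arrays of total RNA, per the labels labelled with biotin by the standard Affymetrix protocol. For the summary algorithm and the scaling, neither was given in the sources used here. Probe sets were named through the platform annotation: of 45101, 64 controls were left out, 34945 had 1 symbol, 932 several and 9160 none listed. For each gene the probe set with the highest mean was kept, and 16 was added before log2. limma 3.58.1 in R 4.3.3 fitted the 8 subclone means (15 residual degrees of freedom), with a moderated F-test, 8 contrasts against the other 7 and 28 pairs. All p-values were adjusted by Benjamini-Hochberg over 18193 genes, and a gene was called at an adjusted p under 0.05. The fit was tested on simulated data. Values of every array are given for the 12 members with the widest range. Genes of further lists are named only if they changed by at least 1.5-fold, at most 4 a list. Members and lists were chosen with earlier results of these data known. The number of arrays limits the precision. Alternatives were another pseudocount (1 or 64), a filter on low values, other normalizations, another prior, the replicate number as a block, other probe sets, another reference and each array left out.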

Additional observations from a re-analysis of the deposited data

How the results depend on the processing

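All 39 members passed the F-test under every alternative run and with each array left out. Of 214 calls of a member in a subclone, the alternatives and the left-out arrays gave between 207 and 228, with 0 changes of sign among called values. The counts for subclone 6, which has 2 arrays, depended on both: without either, the 10 members called higher became 6 (range over all left-out arrays 6 to 11), and the 6 called lower ranged from 3, without its replicate 2, to 7. A single array left there is assumed to vary like the others. The mean of all probe sets moved the targets minus chaperones from -0.22 to -0.20 in subclone 2, from 0.076 to 0.052 in subclone 6, from -0.12 to -0.11 in subclone 19 and from -0.055 to -0.028 in subclone 24, and quantile normalization moved it to -0.18 in subclone 2 and to -0.17 in subclone 28, each by more than the SD of the arrays. Pdia4 in subclone 18 reversed to 0.025 with its second probe set (limma adjusted p = 0.902, no call), a dim one.

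Replicate numbers do not pair the arrays: deviations of same-numbered arrays correlated at -0.0028 on average, and 5 of 23 arrays correlated best with their own number. With the replicate number as a block there were 215 calls, with 1 lost and 2 gained, and all 39 members passed the F-test. Intensities near the floor limit what can be said of dim genes, and mRNA levels do not give splicing, phosphorylation or protein.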
